A study of Homo sapiens with 12 samples.

Results

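RUNX1, RUNX2 and RUNX3 encode the Runt-domain transcription factors, and their loci were examined for histone marks and FOXA2 binding in a pair of human colorectal adenocarcinoma cell lines. Members were all deposited enriched regions lying, by at least 1 bp, within 50 kb of 3 hg19 intervals: RUNX1 at chr21:36160098-36421595, RUNX2 at chr6:45296054-45518819 and RUNX3 at chr1:25226002-25291501. This gave 210 of the 262931 regions in the 10 lists: 125 at RUNX1, 46 at RUNX2 and 39 at RUNX3. The loci were selected on the measured regions themselves, because a wide SW480-only acetylated region at RUNX2 had already stood out in these lists. The widths, counts and differences between the lines given for the loci are therefore a description of a chosen set, without tests, and support nothing beyond themselves.

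The groups were SW480, labelled as a Dukes' type B tumour, and SW620, labelled as Dukes' type C, both untreated and grown in DMEM with fetal bovine serum. Chromatin immunoprecipitation followed by sequencing used antibodies to H3K4me3, H3K4me2, H3K27ac, H3K36me3 and FOXA2, with an input library of each line. Each line and antibody had 1 library, so no difference between the lines has a replicate check and no p-value is given. The labels mention luciferase transfection only for cells that were injected into mice.

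RUNX proteins bind DNA with their partner CBF-beta. RUNX1 is known for its role in blood formation, RUNX2 for its role in bone formation, and RUNX3 for roles in T cells, sensory neurons and the gut epithelium. RUNX genes carry a distal promoter at the gene start and a proximal promoter inside the gene, and each yields a protein with its own N-terminus. H3K4me3 is typical of active promoters, H3K4me2 of promoters and enhancers alike, H3K27ac of active regulatory elements, and H3K36me3 of the bodies of genes being transcribed. FOXA2 is a pioneer factor of endoderm-derived organs such as liver and gut.

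The promoter sequences of RUNX2 and RUNX3 are shown because H3K4me3 lay at the inner promoter of both genes and not at the gene start. They are RefSeq sequences on GRCh38.p14, each from 250 bases before to 50 bases after a transcription start, 5′ to 3′ on the strand of the gene, and were not read from the cells studied. Capitals mark the RUNX core motif ACCACA on either strand (in reverse it reads TGTGGT), a short sequence that the Runt domain recognises. Only this spelling was searched, so any other form of the core is neither marked nor counted. A match describes the letters in the window and does not show binding.

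RUNX2 distal, chr6:45328080-45328379, plus strand: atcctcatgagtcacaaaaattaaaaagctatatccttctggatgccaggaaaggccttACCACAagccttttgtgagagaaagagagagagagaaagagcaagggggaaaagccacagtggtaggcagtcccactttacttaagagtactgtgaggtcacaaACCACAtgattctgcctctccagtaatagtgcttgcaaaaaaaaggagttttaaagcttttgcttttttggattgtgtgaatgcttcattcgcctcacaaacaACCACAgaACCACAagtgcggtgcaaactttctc
RUNX2 proximal, chr6:45422025-45422324, plus strand: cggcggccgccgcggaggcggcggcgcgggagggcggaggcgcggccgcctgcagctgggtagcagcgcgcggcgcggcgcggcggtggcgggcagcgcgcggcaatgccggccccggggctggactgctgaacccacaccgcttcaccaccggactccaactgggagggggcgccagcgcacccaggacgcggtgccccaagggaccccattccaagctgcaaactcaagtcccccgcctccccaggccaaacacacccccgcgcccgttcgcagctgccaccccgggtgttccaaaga
RUNX3 distal, chr1:24964961-24965260, minus strand: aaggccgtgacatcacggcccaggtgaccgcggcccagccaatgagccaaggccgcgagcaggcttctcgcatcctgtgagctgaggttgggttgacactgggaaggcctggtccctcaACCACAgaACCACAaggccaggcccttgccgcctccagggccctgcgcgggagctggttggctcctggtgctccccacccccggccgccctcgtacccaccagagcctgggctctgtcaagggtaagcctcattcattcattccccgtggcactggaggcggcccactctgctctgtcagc
RUNX3 proximal, chr1:24930227-24930526, minus strand: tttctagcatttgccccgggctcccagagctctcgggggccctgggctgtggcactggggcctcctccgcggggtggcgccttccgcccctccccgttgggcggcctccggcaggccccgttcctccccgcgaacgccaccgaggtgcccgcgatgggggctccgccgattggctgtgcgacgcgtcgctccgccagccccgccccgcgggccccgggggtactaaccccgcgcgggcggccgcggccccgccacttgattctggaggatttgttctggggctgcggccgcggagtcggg

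The distal promoters held RUNX cores of this spelling and the proximal promoters held none. The RUNX2 distal window had 4 matches, whose first bases lay at -191, -87, 16 and 24 bp from the start, and the RUNX3 distal window had 2, at -131 and -123 bp. Both distal windows shared the 18-base run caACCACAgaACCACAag, with a pair of cores in tandem. That run occurred in 2 of 35116 RefSeq promoters of the same length, those of RUNX2 and RUNX3. Across all 35116 promoters, 13.1% held at least 1 RUNX core and 1.31% held at least 2.

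Base composition divided the promoters in the same way. The proximal windows of RUNX2 and RUNX3 had 39 and 38 CpG dinucleotides and a GC content of 76% each. The distal windows had 2 and 15 CpG and a GC content of 42.7% and 66.3%, against medians of 14 CpG and 58.7% over all promoters. The table held a single RUNX1 entry, at chr21:34888650-34888949 on the minus strand, with 40 CpG, 72% GC and no RUNX core. The forkhead core TGTTTAC on either strand (in reverse it reads GTAAACA), found in 3.42% of promoters, was in none of the 5 windows.

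The libraries held 12791745 to 47867295 tags, and the authors' caller was run separately in each. The share of tags lying in regions was 58.5% in SW480 and 27.5% in SW620 for H3K27ac, and 73.0% and 52.0% for H3K4me3. It was 45.8% and 50.7% for H3K4me2, 32.8% and 35.2% for H3K36me3, and 0.59% and 2.25% for FOXA2. The lists carry no height per region, so every value below is a position, a count or a length, and a region listed in a single line may lie just under the threshold in the other. The H3K27ac and H3K4me3 shares were both higher in SW480. SW480 had more of both marks at RUNX2, whereas SW620 had more H3K27ac at RUNX1 and more H3K4me3 at RUNX3. H3K4me3 at RUNX1 and H3K27ac at RUNX3 covered slightly more in SW480. The part of these shares in the results at the loci was not tested.

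The first comparison asked where the promoters of the 3 genes carried H3K4me3. In both lines the broadest H3K4me3 region of each locus lay inside the gene and not at its start. Only RUNX1 also carried H3K4me3 at the gene start, and it did so in both lines. All 8 SW480 and all 7 SW620 H3K4me3 regions of the loci overlapped H3K27ac and H3K4me2 of the same line. Over the whole lists 87.1% of SW480 and 82.2% of SW620 H3K4me3 regions overlapped H3K27ac, and 98.9% and 99.4% overlapped H3K4me2.

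RUNX1 had 3 H3K4me3 regions in each line. The inner region spanned chr21:36254865-36262581 in SW480 (7717 bp) and chr21:36254545-36262731 in SW620 (8187 bp), about 163 kb from the gene start. It ranked 44th by width among 18296 SW480 regions and 32nd among 16315 SW620 regions. The region over the gene start was 3881 bp wide in SW480 (chr21:36418030-36421910) and 3869 bp in SW620 (chr21:36417944-36421812). A small region 21.1 to 23.2 kb into the gene was 1683 bp wide in SW480 (chr21:36398813-36400495) and 1001 bp in SW620 (chr21:36398366-36399366). The covered length at RUNX1 was 13.3 kb in SW480 and 13.1 kb in SW620, and 84.4% of the length marked in either line was marked in both. Over all chromosomes that share was 67.3%.

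RUNX2 had no H3K4me3 at its gene start in either line. The inner region spanned chr6:45386767-45392909 in SW480 (6143 bp, rank 120 in its list) and chr6:45388354-45391220 in SW620 (2867 bp, rank 3603). It was thus narrower in SW620, and 46.7% of the SW480 region was covered in SW620. The distal and proximal RUNX2 promoters are 93.9 kb apart in GRCh38, and the inner H3K4me3 region lay 90.7 to 96.9 kb from the hg19 gene start in SW480 and 92.3 to 95.2 kb in SW620. These distances come from separate builds and no coordinate was converted.

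A further RUNX2 region was present in both lines, 48.1 to 50.5 kb from the gene start in SW480 (chr6:45344147-45346523, 2377 bp) and 48.7 to 51.0 kb in SW620 (chr6:45344747-45347017, 2271 bp). The gene table places SUPT3H, which encodes a subunit of the SAGA histone acetyltransferase complex, over RUNX2. Its promoters lie 49.3 and 49.6 kb from the distal RUNX2 promoter in GRCh38, within the distances spanned by this region in hg19. The third SW480 region, chr6:45399285-45400549 (1265 bp), had no counterpart in SW620. In the whole lists 17.1% of SW480 and 6.85% of SW620 H3K4me3 regions were found in that line only. At the loci this held for 1 of 8 SW480 regions and 0 of 7 SW620 regions.

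RUNX3 likewise had no H3K4me3 at its gene start in either line. The inner region spanned chr1:25253634-25257082 in SW480 (3449 bp, rank 1982) and chr1:25254099-25258585 in SW620 (4487 bp, rank 510). The RUNX3 promoters are 34.7 kb apart in GRCh38, and the inner region lay 34.4 to 37.9 kb from the gene start in SW480 and 32.9 to 37.4 kb in SW620. The other H3K4me3 region, chr1:25174820-25176070 in SW480 and chr1:25174681-25176299 in SW620, lay beyond the 3′ end, 49.9 and 49.7 kb away, at the very limit of the window. Just outside that limit lay H3K27ac regions at 50.5 kb in SW480 and 50.7 kb in SW620. At RUNX2 the outermost members lay 34.9 and 35.6 kb away and the nearest regions outside it 54.4 and 55.3 kb. At RUNX1 the corresponding distances were 15.2 and 41.5 kb inside and 58.9 and 64.1 kb outside.

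The next comparison asked how much chromatin each mark covered at the loci. All 4 histone marks covered more of RUNX2 in SW480, by 1.9-fold to 11.9-fold for 3 of them, while H3K36me3 was listed at 0 in SW620. At RUNX1 all but H3K4me3 covered more in SW620, by 1.36-fold to 1.61-fold. At RUNX3 H3K4me3 covered 1.36-fold more in SW620, and the other marks were within 1.13-fold between the lines. H3K27ac covered 39.8 kb of the RUNX2 window in SW480 and 3.35 kb in SW620, an 11.9-fold difference. At RUNX1 it covered 52.9 kb in SW480 and 85.4 kb in SW620, a 1.61-fold difference in the other direction. At RUNX3 it covered 13.1 and 12.8 kb. Over all chromosomes H3K27ac covered 2.15% of the spanned length in SW480 and 1.87% in SW620. The window shares were 12.3% and 1.04% at RUNX2, 14.6% and 23.6% at RUNX1, and 7.9% and 7.71% at RUNX3.

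**Figure D1:**
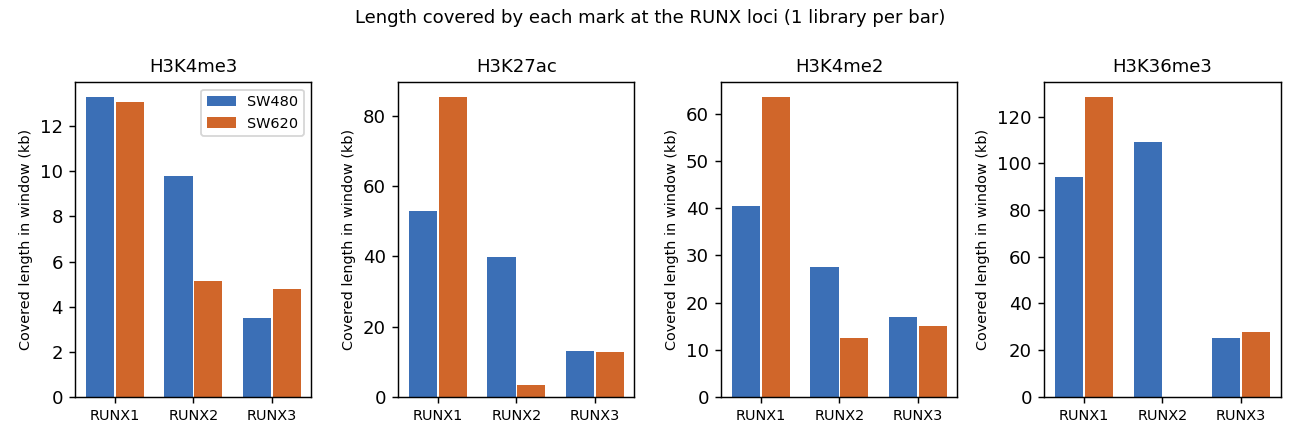
Length in kb covered by each histone mark (panels) in the window of each gene, in SW480 (blue) and SW620 (orange); each bar is 1 library and the scales differ between panels. At RUNX2 the H3K27ac bar is 39.8 kb in SW480 and 3.35 kb in SW620, and there is no H3K36me3 bar in SW620, whereas the RUNX3 H3K27ac bars are 13.1 and 12.8 kb.

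H3K36me3 covered 109 kb of the RUNX2 window in SW480, in 18 regions, and none of it in SW620. It covered 94.3 kb in SW480 and 128 kb in SW620 at RUNX1, and 25.3 and 27.6 kb at RUNX3. The absence in SW620 was thus seen at RUNX2 and at neither of the other loci. H3K4me2 followed the direction of H3K27ac at RUNX2, with 27.5 kb in SW480 and 12.6 kb in SW620 (2.18-fold), and at RUNX1, with 40.6 and 63.6 kb (1.57-fold). At RUNX3 it covered 16.9 and 15.1 kb. H3K4me3 covered 9.79 and 5.14 kb at RUNX2 (1.9-fold) and 3.52 and 4.79 kb at RUNX3.

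Windows of 300 kb across the genome gave the background for such differences, using windows with at least 5 kb of a mark in either line. The SW480 length was at least 2-fold the SW620 length in 18.1% of windows for H3K27ac, 14.3% for H3K36me3, 5.31% for H3K4me2 and 3.95% for H3K4me3. The SW620 length was at least 2-fold the SW480 length in 9.38%, 8.75%, 7.17% and 0.757% of windows. RUNX2 passed the 2-fold mark towards SW480 for H3K27ac, H3K36me3 and H3K4me2. RUNX1 and RUNX3 passed it for no histone mark in either direction. RUNX3 H3K4me3 covered 3.52 kb in SW480 and 4.79 kb in SW620, under the 5 kb minimum of the background windows. The windows of the loci also differed in size from 300 kb, at 361.5 kb for RUNX1, 322.8 kb for RUNX2 and 165.5 kb for RUNX3. Because RUNX2 was chosen for this contrast, its place against that background is given as a description.

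RUNX2 was described further, since its chromatin differed most between the lines. H3K27ac formed 4 regions in SW480 and 2 in SW620. Only 8.42% of the length acetylated in either line was acetylated in both, against 48.2% over all chromosomes, and all of the SW620 length lay within SW480 regions. The widest SW480 region, chr6:45396957-45423797, was 26841 bp wide, rank 12 among 23493 regions, and lay inside the gene, 101 to 128 kb from its start. No part of it was listed as acetylated in SW620.

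The acetylated region at the inner RUNX2 promoter was 6897 bp wide in SW480 (chr6:45386817-45393713) and 1001 bp in SW620 (chr6:45389917-45390917), where 1001 bp is the narrowest histone region in the loci. At the SUPT3H position it was 3083 bp in SW480 (chr6:45344304-45347386) and 2349 bp in SW620 (chr6:45344692-45347040), so acetylation there was of similar width in both lines. The fourth SW480 region, chr6:45553676-45556650 (2975 bp), lay beyond the 3′ end of the gene and was absent from SW620.

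**Figure D2:**
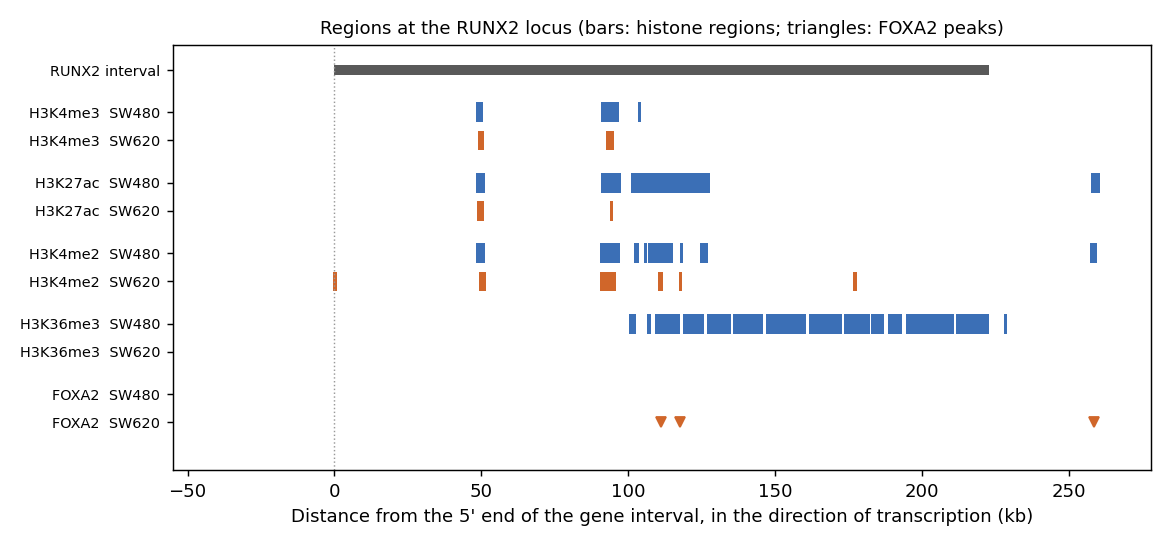
Regions at RUNX2 by distance in kb from the 5′ end of the gene interval, with 1 row per mark and line (SW480 blue, SW620 orange) and triangles for FOXA2 peaks. The wide SW480 H3K27ac region between 101 and 128 kb has no SW620 counterpart, the SW620 H3K36me3 row is empty, and 2 of the 3 SW620 FOXA2 peaks lie within the distances of that SW480 region.

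Promoter and enhancer acetylation were separated by H3K4me3 of the same line. At RUNX2, 3 SW480 regions carried H3K4me3 and 1 did not, and both SW620 regions carried it. The 26841 bp region counted as a promoter region through its overlap with the 1265 bp H3K4me3 region, although most of its length lay outside H3K4me3. In the whole lists 18.8% of SW480 and 4.75% of SW620 acetylated regions with H3K4me3 were found in that line only. At RUNX2 this was so for 1 of 3 SW480 regions and 0 of 2 SW620 regions.

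H3K4me2 at RUNX2 followed the acetylation only in part. SW480 had 8 regions, 4 of them listed in SW480 only, and SW620 had 6, of which 2 were listed in SW620 only. The widest in SW480, chr6:45402809-45411259 (8451 bp, rank 203 of 31768), lay under the wide acetylated region, and 18.5% of it was covered in SW620, by a 1561 bp region at chr6:45406321-45407881. The inner promoter region was 6863 bp wide in SW480 (chr6:45386379-45393241) and 5325 bp in SW620 (chr6:45386394-45391718). Of the SW480 region at the inner promoter, 77.6% was also covered in SW620 for H3K4me2 and 14.5% for H3K27ac. The H3K27ac value rests on a single 1001 bp region, close to the caller's region size of 1000 bp. The share of tags in regions was 58.5% in SW480 and 27.5% in SW620 for H3K27ac, and 45.8% and 50.7% for H3K4me2. The part of these shares in the contrast between the marks was not tested. A SW620 region of 1251 bp at chr6:45295669-45296919 covered the gene start, where SW480 had no region of any mark. It is named after its values were seen. For H3K4me2 as a whole, 23.2% of the SW480 list and 30.2% of the SW620 list were line-only.

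H3K36me3 at RUNX2 was listed in SW480 alone. Its 18 regions ran from 100 to 229 kb from the gene start with no gap wider than 5.39 kb, so they began just after the inner promoter. The 3 widest were chr6:45490444-45506922 (16479 bp), chr6:45442820-45456458 (13639 bp) and chr6:45431605-45442029 (10425 bp). In the whole lists 34.3% of SW480 and 27.9% of SW620 H3K36me3 regions were found in that line only, against 18 of 18 at RUNX2. The part of library enrichment in this difference was not tested.

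RUNX1 carried the most regions of the 3 loci in both lines. SW480 listed 15 H3K27ac regions and SW620 listed 22, including a 1001 bp region that lay wholly within another. Of the acetylated length, 45.1% was common to the lines, against 48.2% over all chromosomes. The inner promoter region was 8721 bp wide in SW480 (chr21:36255159-36263879, rank 319) and 10409 bp in SW620 (chr21:36253518-36263926, rank 148). The other widest SW620 regions were chr21:36358388-36368964 (10577 bp) and chr21:36308224-36318532 (10309 bp), both between the gene start and the inner promoter and both without H3K4me3. In SW480 they were chr21:36338075-36344671 (6597 bp) and chr21:36166308-36170946 (4639 bp). Each of these overlapped acetylation in the other line.

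The acetylated regions of RUNX1 without H3K4me3, counted as enhancers, numbered 12 in SW480 and 19 in SW620. Inside the gene there were 9 and 18 of them. The SW620 counts are of listed regions and include the 1001 bp region that lay wholly within the 10309 bp region. All 10 SW620-only enhancers lay inside the gene, and the 2 SW480-only enhancers lay beyond its 3′ end. In the whole lists 58.9% of SW480 and 59.8% of SW620 acetylated regions without H3K4me3 were found in that line only. At RUNX1 this was so for 2 of 12 and 10 of 19. The 3 acetylated promoter regions of each line were all present in the other.

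The SW620-only enhancers of RUNX1 were mostly narrow. They measured 1.00 to 8.81 kb with a median of 1.16 kb and summed to 22.7 kb, and 5 of the 10 were 1001 bp wide. That width is close to the caller's region size of 1000 bp. It ranked 19193rd of 22236 in the SW620 list, with all regions of that width sharing the rank. Of the 10, 7 lay between the gene start and the inner promoter. H3K4me2 of SW620 lay on 4 of them, against 7 of the 9 SW620 enhancers also found in SW480, and H3K4me2 of SW480 lay on 1. The 9 include a 1001 bp region without H3K4me2 that lay wholly within another of them. Over the whole SW620 list, 91.3% of H3K27ac regions, promoter regions included, lay on H3K4me2. When no SW480 acetylation was allowed within 5 kb, 5 of the 10 remained SW620-only.

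**Figure D3:**
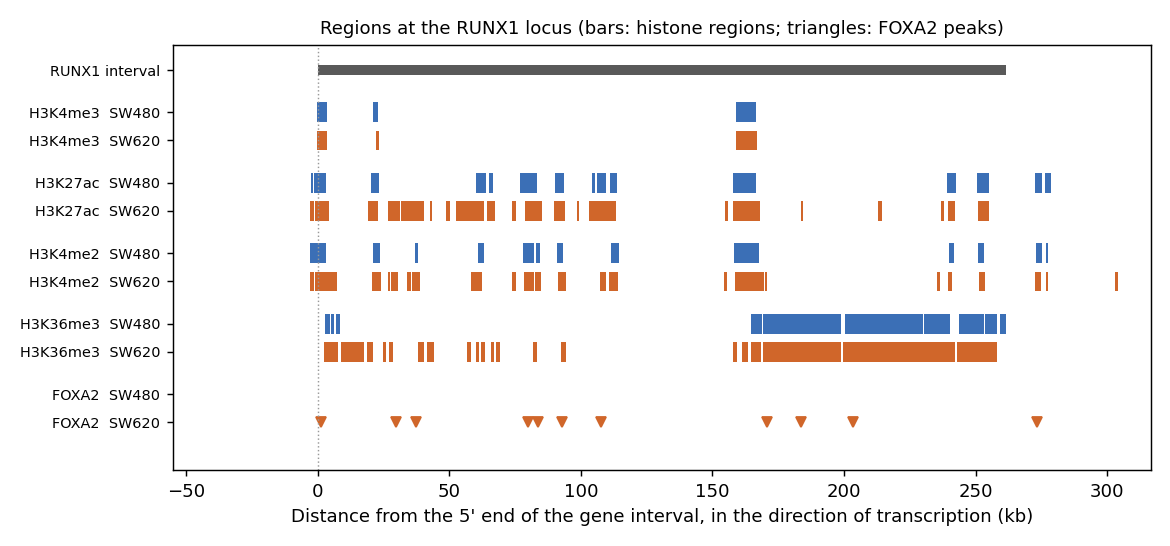
Regions at RUNX1 by distance in kb from the 5′ end of the gene interval, drawn in the direction of transcription, with 1 row per mark and line (SW480 blue, SW620 orange) and triangles for FOXA2 peaks. H3K4me3 sits at the gene start and about 163 kb inside the gene in both lines, and the stretch between these holds more H3K27ac and H3K36me3 regions in SW620 than in SW480.

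H3K4me2 at RUNX1 comprised 14 regions in SW480 and 24 in SW620. Of its length, 53.4% was common to the lines, against 52.7% over all chromosomes. No SW480 region was SW480-only, while 10 of the 24 SW620 regions were SW620-only, beside 23.2% and 30.2% line-only in the whole SW480 and SW620 lists. The widest was at the inner promoter in both lines, 9509 bp in SW480 (chr21:36254003-36263511) and 10955 bp in SW620 (chr21:36251856-36262810). At the gene start it was 4661 bp in SW480 (chr21:36418277-36422937) and 6737 bp in SW620 (chr21:36415687-36422423). The next widest were chr21:36339528-36343368 (3841 bp) in SW480 and chr21:36359028-36363170 (4143 bp) in SW620, both inside the gene.

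H3K36me3 at RUNX1 was common to the lines over 69.1% of its length, against 49.7% over all chromosomes. The widest SW620 region, chr21:36179395-36221861, was 42467 bp wide and ranked 39th of 45466. Next to it lay chr21:36222826-36252366 (29541 bp) and chr21:36163254-36178598 (15345 bp). The widest in SW480 were chr21:36222793-36252479 (29687 bp), chr21:36191391-36221055 (29665 bp) and chr21:36181323-36191301 (9979 bp). These wide regions all lay between the inner promoter and the 3′ end of the gene.

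The gene bodies were then divided at the middle of the inner H3K4me3 region, a division chosen after the data were seen. H3K36me3 covered 91% of the 3′ part of RUNX1 in SW480 and 93.1% in SW620. It covered 85.4% and 93.3% of the 3′ part of RUNX3. At RUNX2 it covered 83.9% of the 3′ part in SW480 and 0 in SW620. In the 5′ parts of RUNX2 and RUNX3 it covered 0 in both lines, and in the 5′ part of RUNX1 2.81% in SW480 and 22.4% in SW620. H3K36me3 was thus largely a mark of the stretch beyond the inner promoter at all 3 genes in SW480, and at RUNX1 and RUNX3 in SW620.

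**Figure D4:**
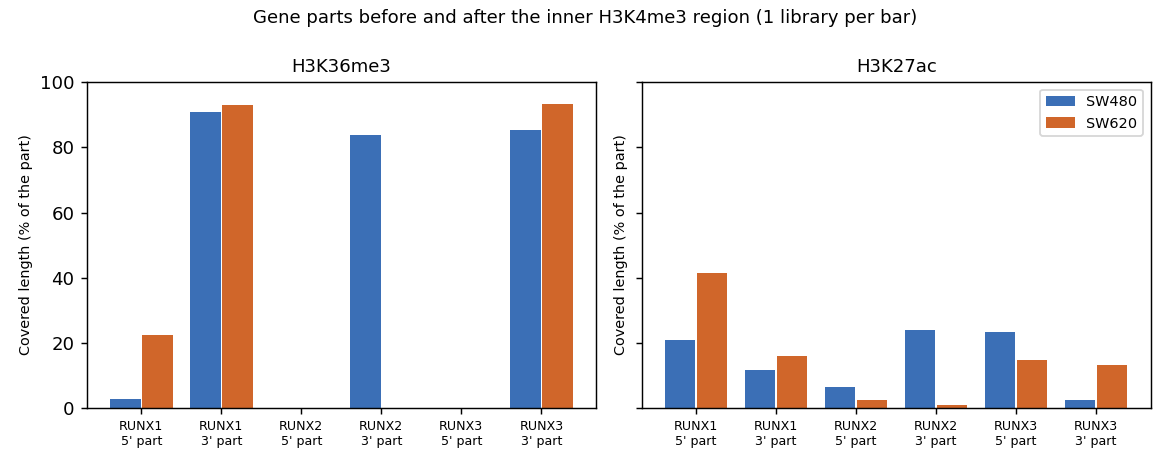
Share of each gene part covered by H3K36me3 (left) and H3K27ac (right) before (5′ part) and after (3′ part) the middle of the inner H3K4me3 region, in SW480 (blue) and SW620 (orange), 1 library per bar; a missing bar is 0. H3K36me3 covers 83.9% to 93.3% of the 3′ parts wherever it is present, and the RUNX2 3′ part has none in SW620.

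The H3K36me3 listed in the 5′ part of RUNX1 in SW620 consisted of many narrow regions. Of 23 SW620 regions at the locus, 17 were SW620-only and 16 of these lay in the 5′ part. They were 1.00 to 3.70 kb wide. H3K27ac of SW620 overlapped 12 of the 17 (70.6%), whereas over the whole list it overlapped 721 of 12706 SW620-only H3K36me3 regions (5.67%). It also overlapped 5 of the 6 SW620 regions at RUNX1 that were found in SW480 (83.3%). It covered 41.3% of the 5′ part of RUNX1, against 1.87% over all chromosomes. In SW480, 1 of 10 H3K36me3 regions at RUNX1 was SW480-only. The line-only shares of the whole lists were 27.9% in SW620 and 34.3% in SW480. Without regions under 2 kb, the RUNX1 difference between the lines was 22.5 kb in place of 33.9 kb.

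H3K27ac was divided unevenly between the gene parts, and differently at each gene. At RUNX1 it covered 20.9% of the 5′ part in SW480 and 41.3% in SW620, and 11.7% and 15.8% of the 3′ part. At RUNX2 it covered 6.46% and 2.51% of the 5′ part, and 23.8% and 0.776% of the 3′ part. At RUNX3 it covered 23.2% and 14.6% of the 5′ part, and 2.5% and 13.2% of the 3′ part. The RUNX1 difference between lines was therefore larger in the 5′ part and the RUNX2 difference in the 3′ part.

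At RUNX3 the lines covered similar lengths but in part at other places. H3K27ac was listed in 4 SW480 and 5 SW620 regions, and 30% of its length was common to both, against 48.2% over all chromosomes. The inner promoter region was 3927 bp wide in SW480 (chr1:25254851-25258777) and 5109 bp in SW620 (chr1:25253688-25258796), and a region 20.6 to 23.0 kb into the gene was also common to both. Upstream of the gene SW480 had chr1:25295655-25299665 (4011 bp), between positions -8.16 and -4.15 kb relative to its start, and SW620 had chr1:25322904-25326518 (3615 bp), between -35.0 and -31.4 kb. Neither upstream region had a counterpart in the other line. A further SW480-only region, chr1:25261990-25264772 (2783 bp), lay inside the gene.

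Of the acetylated RUNX3 regions without H3K4me3, 2 of 3 in SW480 and 3 of 4 in SW620 were line-only, beside the 58.9% and 59.8% of the whole lists. H3K4me2 was listed in 8 regions of each line, 3 of each line-only, beside 23.2% of the whole SW480 list and 30.2% of the SW620 list. Of its length, 28.4% was common to both lines, against 52.7% over all chromosomes. Its widest SW480 region, chr1:25294862-25299386 (4525 bp), lay upstream at the SW480-only acetylated region. Its widest SW620 region, chr1:25251330-25257622 (6293 bp), lay at the inner promoter, where the SW480 region chr1:25254419-25258593 measured 4175 bp. In the part of RUNX3 beyond the middle of the inner H3K4me3 region, H3K4me2 covered 3.96% in SW480 and 18.8% in SW620. H3K27ac covered 2.5% and 13.2% of that part, and H3K4me3 6.61% and 5.04%. Of the 4 histone marks, H3K36me3 was the one most alike between the lines at RUNX3, with 89.8% of its length in both. SW480 listed it as 6 regions, the widest chr1:25237440-25245478 (8039 bp), and SW620 as 2, chr1:25238954-25254478 (15525 bp) and chr1:25226734-25238816 (12083 bp).

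**Figure D5:**
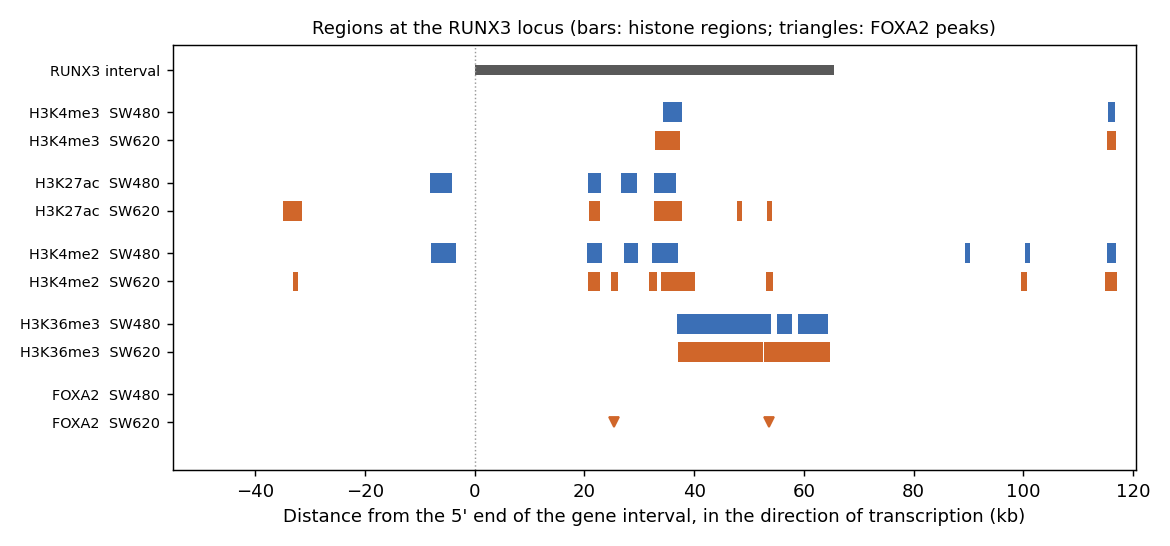
Regions at RUNX3 by distance in kb from the 5′ end of the gene interval, drawn in the direction of transcription, with 1 row per mark and line (SW480 blue, SW620 orange) and triangles for FOXA2 peaks. H3K36me3 fills the gene beyond the inner H3K4me3 region in both lines, and the upstream H3K27ac regions of the lines lie at separate places.

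FOXA2 peaks were listed at the RUNX loci in SW620 alone. There were 16 in SW620, with 11 at RUNX1, 3 at RUNX2 and 2 at RUNX3, and 0 in SW480, which listed 5207 peaks in all against 12372 in SW620. In the whole SW620 list 98.1% of peaks had no SW480 counterpart, so the absence from SW480 was shared by nearly the whole list. The nearest SW480 peak lay 62.9 kb from a RUNX1 peak, and at least 336 kb from the RUNX2 and 900 kb from the RUNX3 peaks. The 16 peaks were each 319 bp wide, which was also the median of the whole SW620 list. The median of the SW480 list was 127 bp. The caller's peak size was 318 bp for the SW620 library and 126 bp for the SW480 library. The widths therefore follow that setting and do not mark out these peaks. Of the 16 peaks, 14 lay inside a gene interval. These intervals filled 261.5 of 361.5 kb of the window at RUNX1, 222.8 of 322.8 kb at RUNX2 and 65.5 of 165.5 kb at RUNX3. Over the whole lists, 4.47% of SW480 peaks lay on H3K27ac and 5.61% on H3K4me2 of that line. In SW620 these shares were 33.9% and 51.7%. The 0 in SW480 is a count of listed peaks and does not show that FOXA2 was absent there.

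The FOXA2 peaks lay mostly on H3K4me2 of SW620. H3K4me2 of SW620 was under 13 of the 16 (81.2%), against 51.7% of the whole list, and H3K27ac of SW620 was under 9 (56.2%), against 33.9%. H3K27ac of SW480 was also under 9, against 24.3%. H3K36me3 of SW620 was under 5 (31.2%), against 3.31% in the whole list, and H3K4me3 under 1 (6.25%), against 13.1%. At RUNX1, with 11 of the peaks, SW620 H3K36me3 covered 35.5% of the window, against 4.51% over all chromosomes. There 4 of the 11 peaks lay on it. SW620 H3K4me2 covered 17.6% of that window against 2.83% over all chromosomes, and H3K27ac 23.6% against 1.87%. The loci were chosen with these marks in view, and the shares are given as a description.

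At RUNX1, 8 of the 11 FOXA2 peaks lay on SW620 H3K27ac and 6 on SW480 H3K27ac. The peak nearest the gene start, chr21:36420017-36420335, lay 1.42 kb inside the gene on H3K4me3, H3K27ac and H3K4me2 of both lines. The peaks chr21:36341331-36341649, chr21:36337767-36338085, chr21:36328684-36329002 and chr21:36313649-36313967 lay in the 5′ part on regions acetylated in both lines. On SW620-only acetylation lay chr21:36391831-36392149, chr21:36384007-36384325 and chr21:36237616-36237934. The remaining RUNX1 peaks lay off SW620 acetylation: chr21:36250814-36251132 and chr21:36218006-36218324 inside H3K36me3 of both lines, and chr21:36147898-36148216 beyond the 3′ end, on H3K27ac of SW480 and H3K4me2 of both lines.

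At RUNX2 the FOXA2 peaks of SW620 lay where SW480 was acetylated and SW620 was not. The peaks chr6:45406876-45407194 and chr6:45413571-45413889 lay within the 26841 bp SW480 region, each on one of the H3K4me2 regions that SW620 listed there. The peak chr6:45554414-45554732 lay in the SW480-only acetylated region beyond the 3′ end, on none of the 4 SW620 histone marks. All 3 were thus on SW480 H3K27ac and none on SW620 H3K27ac. Over the 3 loci this held for 4 of 16 peaks (25%), and over the whole SW620 list for 644 of 12372 (5.21%). H3K27ac covered 12.3% of the RUNX2 window in SW480 and 1.04% in SW620. The loci were chosen because of SW480-only acetylation at RUNX2, so these shares are given as a description. SW480 listed no FOXA2 peak in the SW480-only acetylated regions of RUNX2.

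At RUNX3 both FOXA2 peaks lay inside the gene on SW620 H3K4me2 and on no SW480 H3K4me3, H3K27ac or H3K4me2. The peak chr1:25237676-25237994 lay 53.7 kb from the gene start on a SW620-only acetylated region of 1001 bp and within H3K36me3 of both lines. The peak chr1:25265859-25266177 lay 25.5 kb from the start and was not acetylated in either line.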

How the data were processed

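Per the file headers, the authors ran HOMER findPeaks on each library with that line's input as control. Histone marks used the histone style (region size 1000 bp, 4-fold over input, 4-fold over the local background, false discovery rate 0.001) and FOXA2 the factor style (2-fold for both). Positions are hg19, per the submitters' processing notes. Which aligner and HOMER version were used was not given in the sources used here. The deposited score was 1 in every row and was not used. The values used were start and end positions in bp. Tag totals came from the file headers, and the input libraries were not analysed further.

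Members and lists were chosen with earlier results of these data known. Groups followed the sample titles. Regions that could be named were every H3K4me3 region and FOXA2 peak, and the 3 widest H3K27ac, H3K36me3 and H3K4me2 regions per line and locus, with any other named as such. Covered length was the union of regions within the window, clipped to it. A region was line-only where none of the same mark in the other line overlapped it by at least 1 bp. Enhancers were H3K27ac regions without H3K4me3 of the same line. The 300 kb windows, their 2-fold rule, the motif search and the division of gene bodies were chosen after the data were seen.

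Overlaps were computed with Python 3.11.15 and numpy 2.4.6, tested on simulated regions, and checked against bedtools 2.31.1, with 0 differences in 5 lists. Figures were drawn with matplotlib 3.10.9. Alternatives changed the flank, the overlap rule, the minimum width, the joining of regions and the list length. Promoter sequences came from RefSeq on GRCh38.p14, and no coordinate was converted. Sequences under the hg19 regions were not analysed here. With 1 library per group no test was made.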

Additional observations from a re-analysis of the deposited data

How the results depend on the processing

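Differences are SW620 minus SW480 lengths in kb. The RUNX2 differences of -36.4 kb for H3K27ac and -109 kb for H3K36me3, and the RUNX1 difference of 32.5 kb for H3K27ac, kept their direction and stayed within 1.5 times under each alternative run. RUNX3 did not. Its H3K27ac difference of -0.325 kb was 0.071 kb over the gene interval alone, 0.442 kb with 100 kb flanks and -2.33 kb without regions under 2 kb. Its H3K36me3 difference of 2.33 kb was -0.310 kb with 100 kb flanks, 3.66 kb without regions under 2 kb and 0.338 kb with regions under 3 kb apart joined. Its H3K4me2 difference of -1.89 kb was 2.43 kb over the gene interval alone, 0.008 kb with 100 kb flanks and -5.08 kb without regions under 2 kb. At RUNX1 the H3K4me3 difference of -0.224 kb was -0.126 kb over the gene interval alone, and it was 0.458 kb and the H3K36me3 difference of 33.9 kb was 22.5 kb without regions under 2 kb. The cause was not tested. SW480-only enhancers at RUNX1 numbered 2, but 7 when sharing needed 50% of both regions and 0 within the gene interval. SW620-only enhancers at RUNX1 numbered 10, but 14 when sharing needed 50% of both regions and 5 when no SW480 region was allowed within 5 kb. SW480-only enhancers within the gene interval alone numbered 0 at RUNX2 (1 in the window) and 1 at RUNX3 (2 in the window), and at RUNX3 also 1 with the 5 kb rule. With lists of equal length, an alternative chosen after seeing the data, the RUNX2 H3K36me3 difference was -108 kb. No paired analysis was possible because each group has 1 library. The lists hold no read depth per region, so a region near the calling threshold cannot be told from one far above it.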
